A study of Mus musculus with 8 samples.

Results

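Notch signaling was followed through 10 genes picked by name: the receptors Notch1, Notch2 and Notch3, the ligands Dll1, Dll3 and Jag1, and the target genes Hes1, Hes5, Hey1 and Hey2. They are 10 of the 27998 genes in the single-cell table and of the 55450 genes in the bulk table of the mouse median eminence (ME), the hypothalamic region where neurosecretory axons meet the portal capillaries. The single-cell library pooled the ME of 10 wild-type C57BL/6 female mice aged 2 months and held 990 cells. Bulk RNAseq was done on microdissected ME of 3 control mice, labelled WT, and 4 mice labelled Rax::BrafV600E mutant, all C57BL/6 and 2 months old by the labels, the strain being C57BL/6N in the methods. In the mutants, tamoxifen activated CreERT2 expressed from the Rax locus, which turned on the BrafV600E oncogene in Rax-expressing tanycytes, and the methods place tissue collection 2 months after induction, so that the labelled age cannot be the age at collection for mice induced as adults. The mutant tissue was neoplastic by the methods. Sex, and the alleles and tamoxifen treatment of the controls, were not given for the bulk mice, and p-values measure the spread between these 7 libraries.

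In the Notch pathway, a ligand on a neighbouring cell binds the receptor, and gamma-secretase then frees the receptor's intracellular domain. This domain joins the DNA-binding protein RBPJ and a Mastermind coactivator to switch on Hes and Hey genes, which encode transcriptional repressors. In brain, the pathway is known for holding neural stem cells in an undifferentiated and often quiescent state, for keeping oligodendrocyte precursor cells (OPCs) from differentiating, and for arterial and mural cell identity in vessels. Dll1 and Jag1 activate receptors on neighbouring cells, whereas Dll3 is a divergent ligand that mostly acts within the cell that makes it.

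Dll1, Dll3, Hes5 and Hey2 all had their highest level in the same single-cell class, that of OPC-like cells, so the promoters of these 4 genes are shown first. Each RefSeq promoter (GRCm38.p6) runs from 250 bases before to 50 bases after the annotated start, and 8 of the 10 genes had an entry. Capitals mark TGGGAA or its reverse complement TTCCCA, the core letters bound by RBPJ, and CAGCTG, an E-box form, each searched on both strands with no overlap between the motifs.
Hes5 (chr4:154960673-154960972, plus strand): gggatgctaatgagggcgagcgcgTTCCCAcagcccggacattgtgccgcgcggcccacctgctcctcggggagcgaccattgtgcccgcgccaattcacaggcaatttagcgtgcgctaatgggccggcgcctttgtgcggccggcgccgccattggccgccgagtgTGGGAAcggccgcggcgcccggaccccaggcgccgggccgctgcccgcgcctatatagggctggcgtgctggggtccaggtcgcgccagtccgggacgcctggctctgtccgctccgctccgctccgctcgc
Hey2 (chr10:30842734-30843033, minus strand): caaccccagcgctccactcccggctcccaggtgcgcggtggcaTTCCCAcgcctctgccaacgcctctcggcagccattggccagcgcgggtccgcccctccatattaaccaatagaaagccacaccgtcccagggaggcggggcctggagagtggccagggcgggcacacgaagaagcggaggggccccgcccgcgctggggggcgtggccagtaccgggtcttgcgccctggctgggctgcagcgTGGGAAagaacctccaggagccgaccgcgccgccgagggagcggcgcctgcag
Dll1, upstream start (chr17:15376883-15377182, minus strand): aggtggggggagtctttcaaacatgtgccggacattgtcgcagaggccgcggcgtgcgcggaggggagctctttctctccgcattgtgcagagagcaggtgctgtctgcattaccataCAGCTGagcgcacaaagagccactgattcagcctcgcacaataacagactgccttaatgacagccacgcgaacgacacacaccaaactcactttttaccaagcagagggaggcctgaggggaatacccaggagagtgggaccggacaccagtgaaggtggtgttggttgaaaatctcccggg
Dll3 (chr7:28301736-28302035, minus strand): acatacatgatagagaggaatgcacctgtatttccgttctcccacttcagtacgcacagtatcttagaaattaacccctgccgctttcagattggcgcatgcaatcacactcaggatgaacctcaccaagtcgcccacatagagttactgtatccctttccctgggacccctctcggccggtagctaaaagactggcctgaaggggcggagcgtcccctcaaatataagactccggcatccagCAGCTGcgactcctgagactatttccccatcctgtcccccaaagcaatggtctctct

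The Hes5 and Hey2 windows each held 2 RBPJ cores, and no other member's window held any. Of 32851 mouse promoters of the same length, 25.6% held at least 1 RBPJ core and 3.79% held 2 or more. CAGCTG stood in the Dll1 and Dll3 windows above and in that of Jag1, 1 copy each, and in 16.3% of all promoters. The window of the other, downstream Dll1 start had neither motif. Hes1 and Hey1 had no entry. A match of letters is a description of the window and not a bound site.

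Cells were grouped into 17 classes by clustering on 4847 variable genes from which the 28 Notch pathway genes among them had been taken out, so that the members did not shape the classes. Classes were called by their markers: 3 tanycyte-like classes (2a, 2c and 4, with 61, 38 and 76 cells), an ependymal-like class (2b, 51 cells), OPC-like (60), oligodendrocyte-like (44), neuron-like (45), PTC-like for pars tuberalis cells (38), VLMC-like 1a and 1b for vascular and leptomeningeal cells (75 and 55), macrophage- or microglia-like (52), NK- or T-cell-like (31) and erythrocyte-like (241). Class 2b carried 7 of 8 ependymal and 7 of 12 tanycyte markers. A UMI of Rax, by which the paper assigned tanycytes, was in 90.2% of 2b cells. It was in 95.1, 86.8 and 100% of tanycyte-like 2a, 2c and 4. VLMC-like 1a carried 7 of 8 VLMC and 4 of 9 mural markers, and 1b 8 of 8 VLMC with 3 of 9 mural and 3 of 9 endothelial markers, but none of the VLMC markers was among the top 10 genes by fold of either class, and those of 1b held the mural marker Tagln. Clusters 1c (50 cells), 3b (29), 6b (21) and 10 (23) were left unnamed. Cluster 1c carried 9 of 9 endothelial and 7 of 8 VLMC markers. Cluster 3b carried 8 of 8 macrophage or microglia and 4 of 4 mast cell markers. Clusters 6b and 10 reached 3 markers of no type. Named classes could also carry several types. The PTC-like class carried 6 of 6 pars tuberalis, 4 of 7 other pituitary endocrine and 3 of 8 neuron markers. Levels are summed UMIs of a class per 1000000 UMIs of that class (CPM) with an exact Poisson 95% interval, and shares of cells with a UMI have an exact Clopper-Pearson interval. Both cover counting error, and with a single library there is no test between classes. Cells held from 3284 to 57119 UMIs with a median of 7831.5, and counting UMIs at 3' ends makes levels of different genes comparable without a correction for length. Free RNA in the droplets was gauged by the share of erythrocyte-like cells with a UMI, at a median depth of 7747 UMIs.

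**Figure D1:**
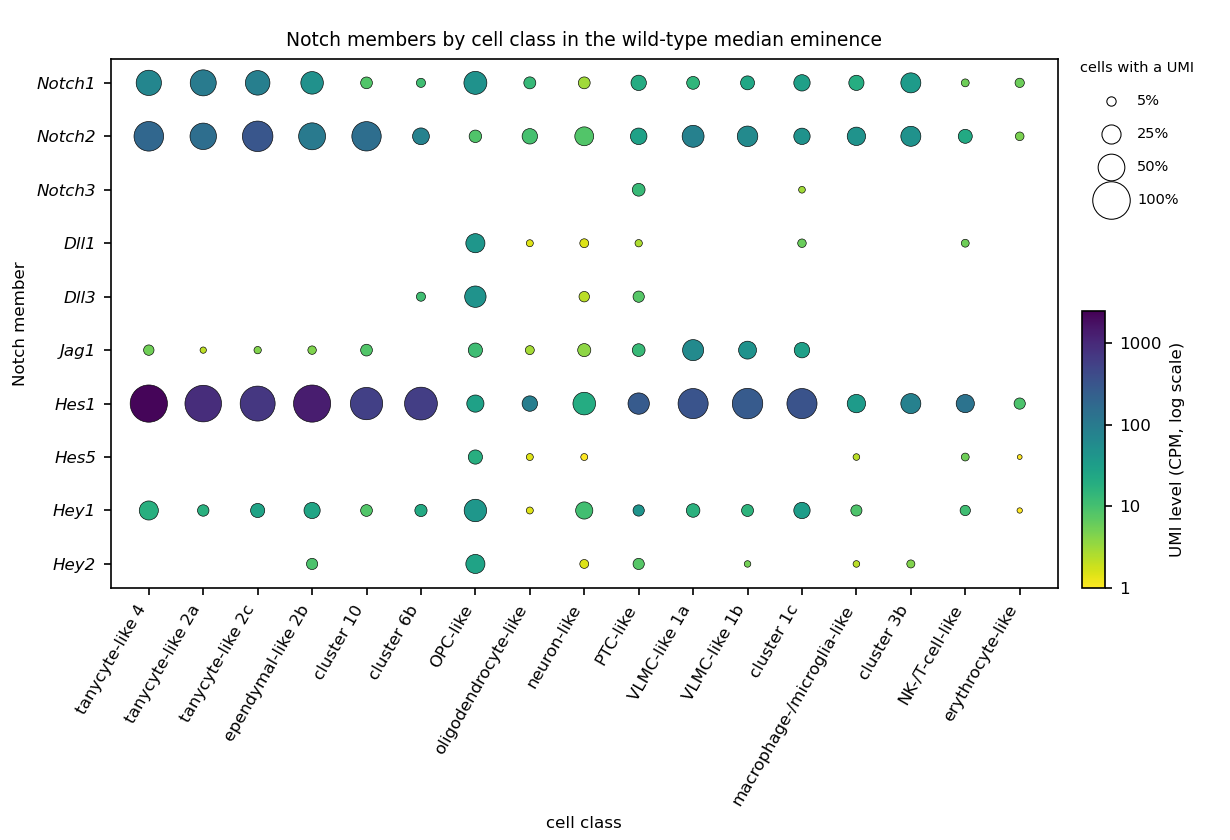
Level of each Notch member (rows) in each of the 17 cell classes (columns) of the wild-type ME, with colour for CPM on a log scale and dot area for the percentage of cells carrying a UMI, and no dot where a class had 0 UMIs. Hes1, Notch1 and Notch2 were high across the tanycyte-like and ependymal-like columns, while Dll1, Dll3, Hes5 and Hey2 peaked in the OPC-like column and Jag1 in the VLMC-like columns.

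Notch1 and Notch2, the receptors that most neural progenitors use, were both highest in tanycyte-like cells, and they parted in the OPC-like class. Notch1 (ENSMUSG00000026923, chr2:26457903-26516663, minus strand, GRCm38) had 278 UMIs in 189 cells. It reached 99.01 CPM (72.5 to 132) in tanycyte-like 2a, 88.3 (53.9 to 136) in 2c and 69.4 (54.7 to 86.9) in 4, followed by 50.1 (31.4 to 75.9) in ependymal-like 2b and 46.8 (32.2 to 65.7) in OPC-like cells. These neighbours in the order had overlapping intervals, and only OPC-like and the classes below it had an upper bound beneath the lower bound of class 2a. A UMI of Notch1 was found in 45.1% of tanycyte-like cells (37.6 to 52.8), in 36.7% of OPC-like cells (24.6 to 50.1) and in 4.98% of erythrocyte-like cells. Neuron-like cells, the deepest class at a median of 31736 UMIs, had 3.04 CPM.

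Notch2 (ENSMUSG00000027878, chr3:98013527-98150361, plus strand) had 602 UMIs in 261 cells. It was highest in tanycyte-like 2c at 313 CPM (245 to 395), above tanycyte-like 4 at 189 (164 to 217), unnamed cluster 10 at 155 (109 to 214) and tanycyte-like 2a at 155 (121 to 195), whose intervals overlapped one another but not that of 2c. The highest class was at 208 CPM at a clustering resolution of 0.4 or with 10 components, and at 209 without called doublets, so the lead of class 2c rests on the clustering. Ependymal-like 2b had 102.5 CPM (74.8 to 137) and VLMC-like 1a had 82.2 (59.7 to 110). OPC-like cells had 8.51 CPM (3.12 to 18.5) from 6 cells, about as low as neuron-like cells at 8.35 (4.17 to 14.9). The share of OPC-like cells with a Notch2 UMI was 10% (3.76 to 20.5), against 4.15% of erythrocyte-like cells (2.01 to 7.5), so the OPC-like share was not set apart from background by its interval. In the OPC-like class, 33 UMIs of Notch1 thus stood against 6 of Notch2, whereas the 3 tanycyte-like classes together held 142 of Notch1 and 350 of Notch2. Among 175 tanycyte-like cells, 79 had a Notch1 UMI, 102 a Notch2 UMI and 51 both.

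Notch3 (ENSMUSG00000038146, chr17:32120820-32166852, minus strand), the receptor known for its role in mural cells, was near the limit of detection with 6 UMIs in all 990 cells. Of these, 5 were in 4 PTC-like cells, which gave 12.95 CPM (4.21 to 30.2), and 1 was in cluster 1c, where 4 of 9 mural markers were enriched. The other 15 classes held 0 UMIs, which in the 76 cells of tanycyte-like 4 allows up to 2.74 CPM (3 counts of the class total).

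**Figure D2:**
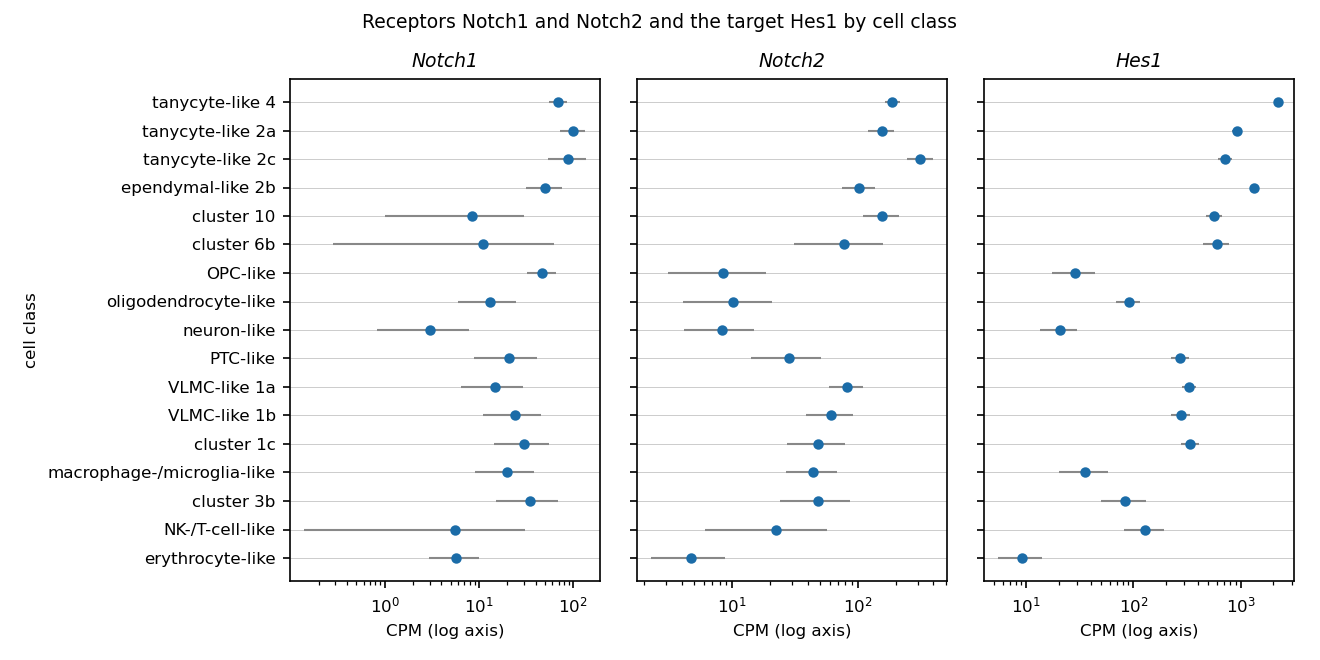
CPM of Notch1, Notch2 and Hes1 (log axes) in the 17 cell classes, points with exact Poisson 95% intervals. Notch1 was at 46.8 CPM in OPC-like cells where Notch2 was at 8.51 and Hes1 at 28.4, while tanycyte-like 4 stood at 2223 CPM of Hes1.

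The Delta-like ligands had no UMI in tanycyte-like cells. Dll1 (ENSMUSG00000014773, chr17:15367354-15376872, minus strand) had 36 UMIs, of which 29 were in 15 of the 60 OPC-like cells, at 41.1 CPM (27.5 to 59.1). Dll3 (ENSMUSG00000003436, chr7:28293553-28302238, minus strand) had 39 UMIs, of which 32 were in 19 OPC-like cells, at 45.4 CPM (31.0 to 64.1). The next class was cluster 1c for Dll1 with 2 UMIs (6.05 CPM, 0.733 to 21.9) and cluster 6b for Dll3 with 1 UMI (11.1 CPM, 0.281 to 61.8), and the latter interval overlapped that of the OPC-like class. For Dll1, the wide intervals of the NK- or T-cell-like class, with 1 UMI, and of cluster 6b, with 0, also overlapped it. Neither gene had a UMI in the erythrocyte-like cells, nor in any tanycyte-like or ependymal-like cell. A count of 0 in the 1095236 UMIs of tanycyte-like 4 allows up to 2.74 CPM of either ligand (3 counts of the class total).

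At a finer clustering (resolution 1.2 in place of 0.8), the OPC-like class split into parts of 38 and 22 cells, and the Delta-like ligands lay in the first. Part 1 carried the precursor markers Pdgfra, at 542 CPM (471 to 620), and Cspg4 and was led by mitotic genes such as Top2a, at 623 CPM (548 to 706). Part 2 carried Enpp6, a marker of newly forming oligodendrocytes, at 1116 CPM (1002 to 1239), and 6.41 CPM of Pdgfra. All 29 Dll1 UMIs of the class were in part 1, at 73.8 CPM (49.4 to 106), and all 32 Dll3 UMIs as well, at 81.4 CPM (55.7 to 115). Part 2 held 0 of each, with an exact upper bound of 11.8 CPM. Its median depth was the higher, at 17563 against 10176 UMIs a cell. The finer clustering likewise left out the Notch pathway genes, while Pdgfra, Top2a and Enpp6 were free to shape it and describe the parts.

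In part 1, 15 cells had a Dll1 UMI and 19 a Dll3 UMI, and 9 had both. Mki67, a marker of cycling cells, was present in 2 of the 15 and 5 of the 19, and in 9 of all 38. Notch1 UMIs lay in 8 of the 15 Dll1 cells. Shares like these depend on depth, since cells hold few UMIs of any of these genes.

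**Figure D3:**
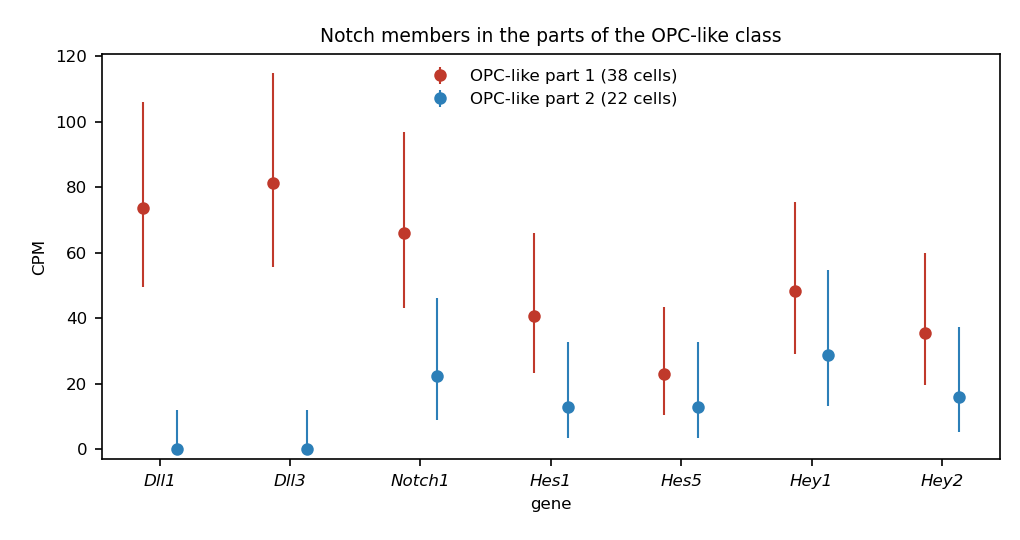
CPM of 7 Notch members in the parts of the OPC-like class that a finer clustering gave (38 and 22 cells), points with exact Poisson 95% intervals. Dll1 and Dll3 had intervals that did not overlap between the parts, whereas those of Hes1, Hes5, Hey1 and Hey2 did and those of Notch1 met at their ends.

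Jag1 (ENSMUSG00000027276, chr2:137081456-137116644, minus strand), a ligand used by mesenchymal and vascular cells among others, had 93 UMIs, and 65.6% of them were in the cluster of vascular and leptomeningeal cells. VLMC-like 1a had 61.6 CPM (42.4 to 86.5), VLMC-like 1b 48.0 (28.4 to 75.8) and cluster 1c, with all 9 endothelial markers, 30.3 (14.5 to 55.6), and these intervals overlapped. PTC-like cells at 12.95 CPM (4.21 to 30.2) and OPC-like cells at 11.3 (4.898 to 22.4) came next. The tanycyte-like classes together had 4.48 CPM (1.93 to 8.82), with 8 UMIs in 7 of 175 cells. None of 241 erythrocyte-like cells had a UMI of Jag1, which allows a share of up to 1.24% (3 of 241 cells).

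Hes1 (ENSMUSG00000022528, chr16:30064384-30067796, plus strand), the repressor most often read as a Notch target, was the most widely found member, with 4489 UMIs in 458 cells, and 80.6% of its UMIs were in tanycyte-like and ependymal-like cells. Tanycyte-like 4 stood highest at 2223 CPM (2136 to 2313), then ependymal-like 2b at 1348.5 (1242 to 1462), tanycyte-like 2a at 919 (834 to 1010), and tanycyte-like 2c at 719.6 (613 to 839). The intervals of the first 3 did not overlap, and that of 2c met that of 2a at its end and overlapped that of cluster 6b at 599 (450 to 781). In tanycyte-like 4, 98.7% of cells had a UMI (92.9 to 100) against 7.88% of erythrocyte-like cells (4.81 to 12.04). The median tanycyte-like 4 cell carried 19.1 Hes1 UMIs per 10000, with quartiles at 11.6 and 33.2, against 8.18, 9.13 and 4.64 in classes 2a, 2b and 2c.

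Hes1 was not confined to the tanycytes. VLMC-like 1a and 1b had 329 (282 to 381) and 277 CPM (226 to 336), cluster 1c 339 (279 to 408) and cluster 10 566 (475 to 670.5). PTC-like cells had 272 CPM from 12 of 38 cells, with a median cell at 0. At the other end, OPC-like cells had 28.4 CPM (17.3 to 43.8) and neuron-like cells 20.5 (13.5 to 29.8), so the class that held the Delta-like ligands was among the lowest in Hes1. Levels of the immediate early gene Fos, which dissociation can raise, went in the same order within the tanycyte-like and ependymal-like classes. Fos was at 318 CPM in 2c, 400.3 in 2a, 2219 in 2b and 4041 in class 4, but it was at 10962 CPM in cluster 1c and 3012 in OPC-like cells, where Hes1 was at 339 and 28.4. Of other early genes, Jun and Atf3 also rose from 2c through 2a and 2b to class 4. Egr1 and Cyr61 did not keep that order, being higher in 2c (181 and 375 CPM) than in 2a (118 and 151). Both were still highest of these classes in class 4, at 961 and 1844 CPM. The part of the early genes' response in the Hes1 levels was not tested.

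Hes5 and Hey2 shared the OPC-like class with the Delta-like ligands. Hes5 (ENSMUSG00000048001, chr4:154960923-154962371, plus strand), a Notch target of neural progenitors, had 18 UMIs, 13 of them in 8 OPC-like cells (18.4 CPM, 9.82 to 31.5), and 0 in all tanycyte-like and ependymal-like cells. Hey2 (ENSMUSG00000019789, chr10:30832359-30842801, minus strand) had 32 UMIs, 19 of them in 15 OPC-like cells (26.9 CPM, 16.2 to 42.1), followed by ependymal-like 2b at 9.11 CPM (2.48 to 23.3), an overlapping interval. Small classes have wide intervals, and those of 8 classes overlapped the OPC-like interval of Hes5 and those of 7 that of Hey2. The RBPJ cores of their promoters, printed above, stand beside these values without a test of the link. Hey1 (ENSMUSG00000040289, chr3:8663359-8667256, minus strand) was spread more evenly, with 143 UMIs in 107 cells and UMIs in 16 of 17 classes. Its PTC-like value of 44.0 CPM (25.7 to 70.5) came from 3 cells, 1 of which held 14 of the 17 UMIs, and was 0 when cells were thinned to 3000 UMIs, and the next class was OPC-like at 39.7 CPM (26.4 to 57.4) from 21 of 60 cells. Cluster 1c had 33.3 CPM of Hey1 (16.6 to 59.5), and the tanycyte-like classes 17.2 to 26.5.

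Of 61 other pathway genes, 56 had a UMI and 38 at least 100, and 19 were highest in a tanycyte-like or ependymal-like class, 4 in OPC-like and 3 in neuron-like cells. The share of all genes highest in these classes was not computed, so these counts cannot show a lean of the pathway to any class. Some rest on few UMIs, such as Aph1b in tanycyte-like 2c on 5. Among noncanonical ligands, Dlk1, which lacks the domain that activates receptors, was highest in tanycyte-like 2a at 2725 CPM (2577 to 2879) and nearly as high in 2c at 2680. Dner was highest in neuron-like cells at 115 CPM (97.7 to 135), and Dll4, the endothelial ligand, in cluster 1c at 15.1 (4.91 to 35.3). Of the genes listed as further targets, Bhlhe40 was highest in cluster 1c at 919.8 CPM and Bhlhe41 in VLMC-like 1a at 138. Hes6, a relative that counteracts Hes1, was highest in cluster 6b at 211 with 142 in tanycyte-like 2a. This list was made by name, and a response of its genes to Notch was not tested.

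The nuclear and processing parts of the pathway were broad. Ctbp1, a corepressor, was highest in OPC-like cells at 234 CPM (199.7 to 273) with oligodendrocyte-like cells at 233. Snw1 was at 144 in tanycyte-like 2a (112 to 183), 143.5 in ependymal-like 2b and 142 in OPC-like cells. The Groucho corepressor Tle2 was highest in tanycyte-like 2c at 132 (89.4 to 189). Of gamma-secretase, Psenen was highest in cluster 6b at 355 CPM (243 to 501), with tanycyte-like 2a at 334. Aph1a was highest in tanycyte-like 2c at 159, and the sheddase Adam17 in cluster 3b at 87.6. Lfng, a fringe enzyme that tunes which ligand a receptor answers, was highest in NK- or T-cell-like cells at 179 CPM, with 64.6 in tanycyte-like 2a and 2.84 in OPC-like cells. Poglut1 and Mfng followed at 66.2 and 61.3 in tanycyte-like 2c and cluster 3b. Of turnover genes, Dtx3 and Itch were highest in tanycyte-like 2c at 247 and 110.4 CPM, and Fbxw7 in neuron-like cells at 100.9.

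For the 4 members with at least 100 UMIs, the genes closest in profile were sought among 8793 others by Pearson correlation of log2(CPM + 10) over the 17 classes, which share a library and differ in depth. They were Col27a1, Slc1a3 and Naprt for Notch1 (r = 0.88, 0.87 and 0.86), Smo, Slc41a1 and Glb1l for Notch2 (0.94, 0.92 and 0.89), Acaa2, Cib1 and Gsta4 for Hes1 (0.93, 0.92 and 0.91) and Atpaf2, Acd and Armcx5 for Hey1 (0.84, 0.83 and 0.83). All were picked as the highest of 8793 correlations over 17 classes. Acd and Armcx5 were highest in the PTC-like class, where Hey1 was at 0 CPM with cells thinned to 3000 UMIs.

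The bulk comparison asks whether Notch genes differ between ME with BrafV600E switched on in tanycytes and control ME. Libraries held 4928456 to 13816596 counts and 17874 to 40852 detected genes. Control 3 had the fewest detected genes but the most counts. Mutants 3 and 4 had the most detected genes, 40852 and 39508, and the fewest counts, 5678941 and 4928456. Whole tissue cannot tell fewer cells of a type from less RNA per cell. Rax was at 26.8 to 143 CPM in controls and 33.2 to 175 in mutants, and Braf at 13.01 to 33.8 and 13.9 to 28.4, but the allele is a point mutation that gene counts do not check. Defining markers of the ME were present: the 12 tanycyte markers summed to 3593 to 5462.5 CPM in controls and 3518 to 6379 in mutants, and of them Mia alone was at 0 in a library. Of 20466 genes tested by edgeR, 0 passed an adjusted p of 0.05, 0% of those tested, and 1661 (8.12%) had an unadjusted p below 0.05, 4.23% higher and 3.89% lower in mutants. limma-voom called 0 and DESeq2 301 (1.47%).

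None of the 10 members passed the threshold in edgeR, limma-voom or DESeq2. All 10 passed the filter on low counts, and 7 had a log2 fold change above 0 (70%, against 56.7% of all genes). Of these 7, Notch1, Notch3, Dll3 and Hes5 changed sign under at least 1 alternative setting. Jag1, which was below 0, did so too. The median of the 10 was 0.30 against 0.13 for all genes. The groups overlapped for every member, whereas they did not overlap for 9.01% of genes tested, 5.83% higher and 3.18% lower in mutants.

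**Figure D4:**
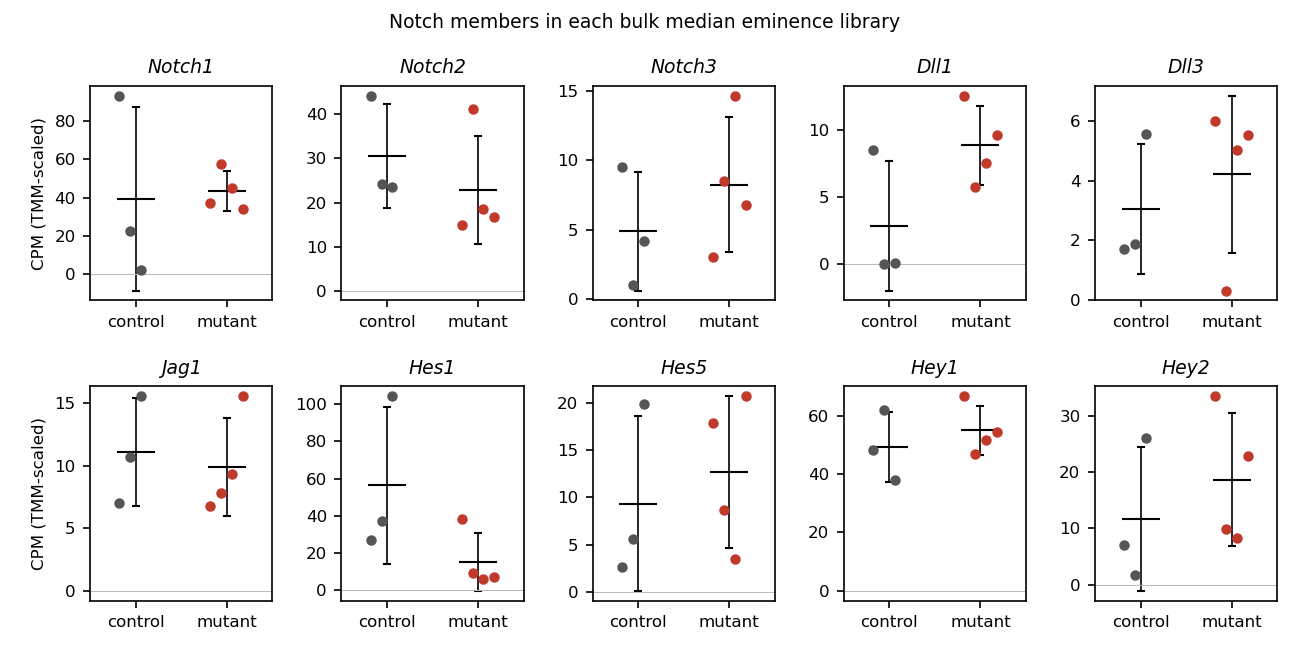
CPM (TMM-scaled) of the 10 Notch members in each bulk library, 3 control (grey) and 4 mutant (red), with the mean and SD as horizontal and vertical lines, on a separate linear axis per gene. Mutant and control points overlap for every member, and Hes1 was at 6.01 to 9.07 in 3 mutants with the first mutant at 38.2.

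Of the receptors, Notch1 was at 93.2, 22.5 and 2.22 CPM in controls 1 to 3 and at 37.4, 57.7, 45.1 and 34.1 in mutants 1 to 4. The controls thus spanned a wider range than the mutants, and the log2 fold change was 0.15 ± 0.82 (SE, adjusted p = 0.977 by edgeR). It was 1.79 without control 1 and -0.40 without control 3. Notch2 was at 44.3, 24.2 and 23.5 CPM in controls and 14.9, 41.2, 18.5 and 16.8 in mutants. Mutants 1, 3 and 4 lay below every control and mutant 2 among them (log2 fold change -0.42 ± 0.44, adjusted p = 0.862 by edgeR). Notch3 was at 9.49, 0.977 and 4.19 CPM in controls and 2.998, 8.55, 14.7 and 6.79 in mutants (0.76 ± 0.82, adjusted p = 0.864 by edgeR), and the log2 fold change was 1.63 without control 1 and 0.27 without control 2.

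Of the ligands, Dll1 was at 8.47, 0 and 0.0856 CPM in controls and 12.6, 5.73, 7.52 and 9.65 in mutants. Controls 2 and 3 had 0 and 1 reads, 3 counts being 0.266 and 0.257 CPM there, while control 1 lay among the mutants (log2 fold change 1.65 ± 1.38, adjusted p = 0.814 by edgeR). Without control 1, the gene passed the threshold (adjusted p = 0.0489 by edgeR), with a fitted value of 7.26 that rests on those near-empty libraries and bounds nothing. Over other settings its adjusted p ranged up to 1. Dll3 was at 1.70, 1.87 and 5.56 CPM in controls and 6.00, 0.313, 5.01 and 5.54 in mutants, with 3 mutants near the highest control (0.46 ± 1.002), and its log2 fold change was 1.23 without control 3 and 0.15 without control 1. Jag1 was at 7.01, 10.7 and 15.6 CPM in controls and 6.79, 7.82, 9.35 and 15.5 in mutants, nearly the same range (-0.17 ± 0.51).

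Summed markers are given beside these values. All 8 OPC markers had a higher mean in mutants, and their sum was 245 to 566 CPM in controls and 775 to 2050 in mutants, without overlap. Cspg4 and C1ql1 were at 0 in some library. Olig1 made up most of the sum, at 149 to 425 CPM in controls and 515 to 1264 in mutants. Pdgfra, in contrast, overlapped between the groups, at 33.6 to 65.0 and 60.1 to 122 CPM. The 8 VLMC markers summed to 1241 to 2993 CPM in controls and 505 to 890 in mutants, with Igf2 at 0 in some library and Pdgfra in both lists, and the 9 endothelial markers to 325 to 529 and 99.6 to 184. Of these markers, 2 VLMC and 1 endothelial had a higher mean in mutants. The 8 ependymal markers ran from 162 to 264 CPM in controls and 146 to 268 in mutants, the 9 mural markers from 111 to 252 and 124 to 263, and the 6 pars tuberalis markers from 2480 to 13262 and 802 to 4164. No marker of these lists passed the threshold in edgeR, but 0 of all 20466 genes did, so this does not describe the markers. The part of these cell types in the values of Dll1, Dll3 and Jag1 was not tested.

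Of the targets, Hes1 had the lowest p of the members. It alone had an unadjusted p below 0.05 by edgeR, 10% of the members against 8.12% of all genes tested. It was at 27.0, 37.4 and 104 CPM in controls and 38.2, 9.07, 6.01 and 6.97 in mutants, so that 3 mutants lay below every control and mutant 1 lay among them. The log2 fold change was -1.89 ± 0.69 (SE, 95% interval -3.43 to -0.36), with an unadjusted p of 0.0204 and an adjusted p of 0.520 by edgeR, and DESeq2 gave an adjusted p of 0.142. With no filter on low counts, it passed the threshold (-1.89 ± 0.44, adjusted p = 0.00688 by edgeR). The estimate was nearly the same there and the SE smaller. In that fit, 4631 genes had an unadjusted p below 0.05 by edgeR, against 1661 with the filter. Over 15 other settings, the adjusted p of Hes1 ranged from 0.00688 to 0.99983. Its level went with the number of detected genes: the 3 libraries with the fewest, control 3, control 2 and mutant 1, had the 3 highest values. With that number as a covariate, the log2 fold change was -0.71 ± 0.42 (adjusted p = 0.998 by edgeR), and without control 3, it was -1.05. Detected genes ran from 17874 to 34942 in controls and from 25910 to 40852 in mutants. The covariate is thus partly tied to the group, and its fit cannot tell the 2 apart. Control 3 also had the lowest median rank correlation with the other libraries, 0.84 against 0.89 to 0.92, and the mitochondrial share of counts was 3.07 to 5.54% in controls and 2.26 to 2.99% in mutants, without overlap. The part of these library measures in the Hes1 values was not tested. The summed markers of tanycytes, the cell type highest in Hes1 in the single-cell library, overlapped between the groups. Those of VLMC and endothelial cells, given above, did not, and VLMC-like cells also carried Hes1. The part of any cell type in the bulk Hes1 values was not tested.

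Hes5 was at 2.60, 5.596 and 19.9 CPM in controls and 17.9, 8.65, 3.51 and 20.7 in mutants (0.44 ± 0.77). Hey2 was at 7.12, 1.78 and 26.1 CPM in controls and 33.6, 9.90, 8.35 and 22.9 in mutants (0.68 ± 0.80). For both, controls 1 and 2 were low and control 3 lay among the mutants, and mutant 3 was as low as those controls in Hes5. Without control 3, the log2 fold change was 1.64 for Hes5 and 2.08 for Hey2 (adjusted p = 0.608 and 0.488 by edgeR), and at the other end it was -0.028 for Hes5 without control 1 and 0.20 for Hey2 without control 2. Hey1 varied least, at 48.1, 61.7 and 37.9 CPM in controls and 66.7, 46.9, 51.6 and 54.3 in mutants, and its log2 fold change of 0.16 ± 0.29 had a 95% interval of -0.49 to 0.80. Adjusted p-values of these genes by edgeR ran from 0.881 for Hey2 to 0.932 for Hey1.

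Some of these values can hold reads of overlapping genes, as the strand setting of the bulk counts was not given. Antisense or same-strand genes overlap 31.8% of the exon length of Hes5, 20.55% of Dll1, 10.4% of Notch1, 6.03% of Notch3 and 5.02% of Notch2. The antisense partner of Dll1, A930024N18Rik, was at 1.69, 0 and 5.22 CPM in controls and 0 to 2.32 in mutants. Dll3, Jag1, Hes1, Hey1 and Hey2 had no exonic overlap.

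Of the 61 other pathway genes, 54 passed the filter and 0 passed the threshold, and 9 (16.67%) had an unadjusted p below 0.05, 7 higher and 2 lower in mutants, against 8.12% of all genes, by edgeR. Groups did not overlap for 7 (12.96%, against 9.01%). A log2 fold change above 0 was found for 32 (59.26%, against 56.7% of all genes), and the median was 0.15 against 0.13 for all genes. Of turnover genes, 11 of 13 were above 0, and of proteases 6 of 9, of the nuclear complex 9 of 15, of further receptors and ligands 3 of 6, of further targets 1 of 5 and of sugar transferases 1 of 5. These role groups are small, and a lean of any of them was not tested. Values of 8 of these 9 genes follow, chosen after their values were seen. Mib1, the ubiquitin ligase through which cells prepare ligands for signaling, was at 27.1, 17.7 and 14.97 CPM in controls and 35.9, 41.4, 44.4 and 51.7 in mutants (log2 fold change 1.12 ± 0.33, adjusted p = 0.440 by edgeR), every mutant above every control.

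Ncstn, a subunit of gamma-secretase, was at 164, 169.7 and 336 CPM in controls and 130.0, 121, 95.4 and 91.2 in mutants, where every mutant lay below every control (log2 fold change -1.03 ± 0.32, adjusted p = 0.445 by edgeR). Hes6 was at 118, 122 and 179 CPM in controls and 109, 48.8, 43.3 and 45.8 in mutants (-1.18 ± 0.38, adjusted p = 0.457 by edgeR), likewise without overlap. By DESeq2, the adjusted p was 0.108 for Mib1, 0.0949 for Ncstn and 0.0925 for Hes6. Control 3 was the highest library for Ncstn and Hes6 and for Hes1.

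The other 5 had log2 fold changes above 0 with adjusted p-values of 0.520 to 0.612 by edgeR. Aph1b, a further gamma-secretase subunit, was at 18.1, 14.9 and 5.13 CPM in controls and 16.4, 60.6, 36.2 and 31.6 in mutants (1.51 ± 0.54), so that mutant 1 lay among the controls. Lfng was at 4.18, 5.24 and 4.45 CPM in controls and 6.99, 13.5, 11.4 and 11.3 in mutants (1.22 ± 0.52), without overlap. Dtx2, of the Deltex ubiquitin ligases, did not overlap either (0.90 ± 0.41), whereas its relative Dtx1 (1.17 ± 0.50) and the corepressor Spen (1.55 ± 0.67) each had 3 mutants above every control. Control 3 was the lowest library for Aph1b, Spen, Dtx1, Dtx2 and Mib1.

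**Figure D5:**
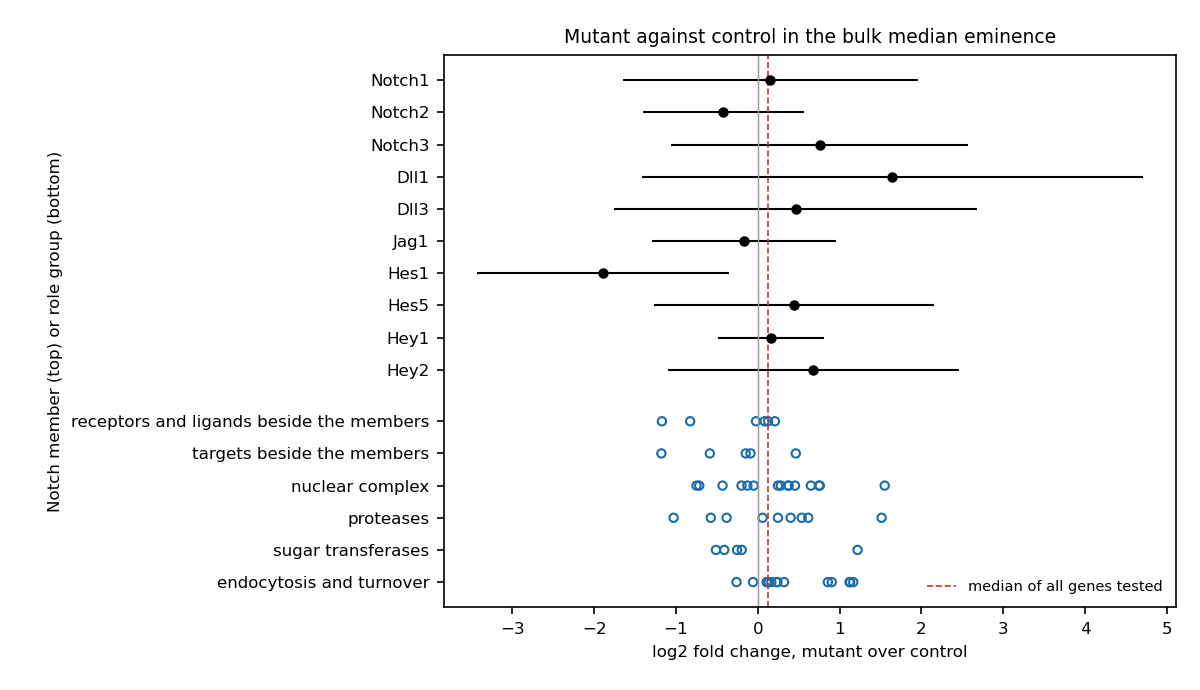
Log2 fold change of mutant over control in bulk ME for the 10 Notch members (top, points with 95% intervals from the edgeR fit) and for other pathway genes tested, by role (bottom, open circles), with the median of all genes, 0.13, as a dashed line. The interval of Hes1, -3.43 to -0.36, was the only member interval that did not include 0, and no gene shown passed the adjusted threshold. The intervals are not adjusted for the number of genes, and 8.12% of all genes tested had an unadjusted p below 0.05 by edgeR.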

How the data were processed

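Single cells of pooled wild-type ME were profiled with Chromium Single Cell 3' v2, and the authors deposited UMI counts per gene and cell from Cell Ranger (2.0.1 per the processing notes) on an Ensembl reference of GRCm38. For bulk ME, the authors deposited raw read counts per Ensembl gene of Smart-seq2 libraries; the aligner and counter are not given in the sources used here. DESeq2 is listed without a role. No column was left unused (0), and the methods count 1 mouse per bulk library.

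UMI counts were log-normalized (scale factor 10000) and clustered in Seurat 5.3.0 at a resolution of 0.8 on 20 components of the variable genes (dispersion over 0.5, mean 0.02 to 8), without Notch pathway genes. The 4 clusters with at least 3 enriched markers of several types were clustered again (10 components). Naming a class took 3 or more markers whose CPM was at least 3-fold that of all remaining cells. Scrublet in scanpy 1.11.5 (expected rate 0.06) called 3 doublets, which stayed in.

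For the bulk comparison, the quasi-likelihood test of edgeR 4.0.16 was run under R 4.3.3 (filterByExpr, TMM, Benjamini-Hochberg over all genes). On simulated counts with 200 genes changed 4-fold at the dispersion of these libraries, 19% of the changed genes were called over 17900 genes, and 61.5% with 16-fold changes. Alternatives were DESeq2 1.42.0, limma-voom (limma 3.58.1), other scalings and filters, the replicate block, detected genes as a covariate and each library left out. Named were all members, the 3 highest other genes per role group in single cells, pathway genes called in bulk (0) and, per member, the 3 genes closest in profile; pathway genes with an unadjusted p below 0.05 in bulk were named after their values were seen. The members and lists were chosen with earlier results of these data known. Positions and exon lengths are of GENCODE M21 (GRCm38). Values of 1 pathway gene are not reported here.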

Additional observations from a re-analysis of the deposited data

Results flagged for a closer look

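In the 4 mutant libraries, 2 of the 10 members had a library farther from the rest than Dixon's criterion allows, a criterion that chance meets in about 1 in 20 groups (0.05) and that 6.01% of the 20466 genes tested met in these libraries. Hes1 was at 38.2 CPM in mutant 1, with the nearest other mutant at 9.07 CPM, a gap of 0.905 of the range. Notch2 was at 41.2 CPM in mutant 2, with the nearest at 18.5 CPM, a gap of 0.861 of the range. Mutant 1 had the fewest detected genes of the mutants, 25910 against 35978 to 40852. Without mutant 1, the log2 fold change of Hes1 was -2.90, and without mutant 2, that of Notch2 was -0.87.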

How the results depend on the processing

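Against 0 genes called by edgeR, DESeq2 called 301, upper-quartile scaling 1, library sizes alone 3, no filter 240, at least 10 counts in every library 13, the detected-genes covariate 1 and an adjusted p below 0.1 14. Leaving out each library in turn gave 0 to 45 genes and 0 to 1 members. Without control 1, 45 genes and the member Dll1 were called, and without control 3, 16 genes. With no filter, 1 member was called, Hes1. No other pathway gene was called under any setting run. Of the members' log2 fold changes, Jag1 reversed to 0.049 with library sizes alone, Dll3 to -0.15 with limma-voom, and Notch1 and Notch3 to -0.33 and -0.37 with the detected-genes covariate. Over left-out libraries, Notch1 ranged from -0.40 to 1.79, Jag1 from -0.46 to 0.16, Hes5 from -0.028 to 1.64, Hey2 from 0.20 to 2.08 (without control 3), Notch3 from 0.27 to 1.63 and Dll3 from 0.15 to 1.23. The replicate block called 0 genes, 0 members and 0 pathway genes, and Dll3 was then at -0.22. Same-numbered libraries' deviations correlated at -0.40, -0.01 and -0.18, so this measure showed no pairing by number. With 3 pairs and libraries that differ in detected genes, it cannot exclude a pairing. The causes were not tested. Scaling by library sizes alone shifted the median log2 fold change of all genes by 0.13, limma-voom by 0.23 and no filter by 0.46.

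In single cells, Notch2 was at 208 CPM at resolution 0.4, 208 with 10 components and 209 without doublets. Dll1 and Dll3 were at 73.8 and 81.4 CPM at resolution 1.2. Hes1 was at 2329 CPM (2328.5) with 10 components, 2451 without doublets and 2325 with cells thinned to 3000 UMIs. Hey1 in the PTC-like class was at 0 CPM after thinning. The remaining 61 of 70 values stayed within their counting intervals, but the highest class was then not always the same cells. At resolution 1.2, that of Hey1 was part 1 of the OPC-like class, at 48.3 CPM from 19 UMIs. It shared 0% of its cells with the PTC-like class. At that resolution, the highest class of Notch1 shared 22.2% with class 2a, and without doublets, that of Notch2 shared 0% with class 2c. Depth limits Notch3, Hes5, Hey2, Dll1 and Dll3, each with fewer than 40 UMIs in all cells.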
